A study of Rattus norvegicus with 6 samples.

Results

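Proteoglycan genes were followed in stromal cells cultured from rat blood and from rat bone marrow. They comprised the small leucine-rich proteoglycans Dcn, Lum, Bgn and Fmod, the glypicans Gpc1 and Gpc3, the syndecans Sdc1, Sdc2 and Sdc4, and the large cartilage proteoglycan Acan. Their members were all probe sets whose single gene symbol in the platform annotation is one of these 10 names, which gave 13 of the 15923 probe sets on the array, for 10 of 10412 named genes. Acan, Sdc1 and Sdc2 each had 2 probe sets and the other genes 1.

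All cultures came from rats carrying a GFP transgene. The promoter of the transgene and the age and sex of the rats are not given in the labels. The first group, peripheral blood-derived mesenchymal stromal cells, held 3 cultures, 1 from each of the rats named S4, S5 and S6. The second group, bone marrow-derived mesenchymal stromal cells, held 3 cultures from the same 3 rats. Mononuclear cells of each source were separated on a density gradient, plated in medium with 15% fetal bovine serum, and taken as adherent cells to passage 2. For each culture, 10 µg of total RNA was labelled for 1 Affymetrix RAE230A array.

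Proteoglycans are proteins that carry long sulfated sugar chains. The leucine-rich ones lie in the matrix, where they bind collagen fibrils and growth factors. Glypicans, which are held to the outer membrane by a lipid anchor, and syndecans, which span the membrane, carry heparan sulfate chains that hold growth factors at the cell surface. Stromal cells of connective tissue are a main source of the leucine-rich members, while aggrecan, the product of Acan, is the hallmark proteoglycan of cartilage.

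For orientation, the 250 bases before the annotated start are shown for Fmod, Lum and Gpc3, the genes with the widest mean differences among the 6 of 10 members that matched the RefSeq promoter table (build GRCr8). They lie at chr13:48045317-48045566 on the plus strand (Fmod), chr7:34245456-34245705 on the plus strand (Lum) and chrX:137157599-137157848 on the minus strand (Gpc3). Each is written 5′ to 3′ on the strand of its gene. The Lum window lies past the outermost start of the gene in the RefSeq gene table, so it belongs to another transcript start. Capitals mark matches on either strand to the TATA box TATAAA, the GC box that Sp1 binds (GGGCGG), the CCAAT box (CCAAT), the SMAD element (CAGAC) or the AP-1 site (TGACTCA), and no marked matches overlap.
Fmod: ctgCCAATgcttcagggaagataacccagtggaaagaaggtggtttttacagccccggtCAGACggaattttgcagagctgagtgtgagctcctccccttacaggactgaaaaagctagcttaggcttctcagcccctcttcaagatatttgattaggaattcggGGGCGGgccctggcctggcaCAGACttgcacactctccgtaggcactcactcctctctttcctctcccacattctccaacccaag
Lum: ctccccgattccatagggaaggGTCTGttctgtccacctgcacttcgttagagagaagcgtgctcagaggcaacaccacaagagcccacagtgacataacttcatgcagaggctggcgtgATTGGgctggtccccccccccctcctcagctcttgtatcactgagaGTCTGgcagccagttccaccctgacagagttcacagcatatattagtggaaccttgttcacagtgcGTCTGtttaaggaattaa
Gpc3: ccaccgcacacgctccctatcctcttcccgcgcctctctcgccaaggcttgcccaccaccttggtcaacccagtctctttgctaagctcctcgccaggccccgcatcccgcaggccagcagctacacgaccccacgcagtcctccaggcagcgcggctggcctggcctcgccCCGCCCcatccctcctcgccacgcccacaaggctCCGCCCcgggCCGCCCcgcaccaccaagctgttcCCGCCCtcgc
The Gpc3 window held 4 matches to GGGCGG and none to the other motifs, and 71.6% of its bases were G or C, against a median of 51.2% over the windows of all 33469 promoters in the table. The Fmod window held 1 match to GGGCGG, 1 to CCAAT and 2 to CAGAC. The Lum window held 1 match to CCAAT and 3 to CAGAC. Over all promoters in the table, 30.5% of windows held GGGCGG, 34% CCAAT, 42.9% CAGAC, 12.9% TATAAA and 4.05% TGACTCA, so the matches are common words. The expression arrays do not measure these windows, and a match describes the letters only.

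Signals are given on the log2 scale as deposited. No source used here states the base of the logarithm, which was read from the values, so folds rest on that reading. Array medians lay between 8.12 and 8.22. A probe set was tested where its signal was above 8.18, the median of the whole table, on at least 3 of the 6 arrays. Of the 13 member probe sets, 10 passed this filter. The Gpc3 probe set and the dimmer probe sets of Sdc1 and Acan did not. Differences are blood minus marrow, given ± the standard error of a limma fit that included the rat, and p-values were adjusted by Benjamini-Hochberg over all 8135 tested probe sets. A blood and a marrow culture of the same rat were thus compared within the rat, and the precision is set by there being 3 rats. All 10 stromal marker genes fixed for checking the label passed the filter, and their mean log2 signal was 11.12 to 11.48 in blood cultures and 11.02 to 11.44 in marrow cultures. Macrophage and other leukocyte markers were present too. Of 13 such genes 8 passed the filter, with a mean over all 13 of 8.87 to 9.19 in blood and 8.35 to 9.16 in marrow cultures. Ptprc, the leukocyte antigen CD45, did not pass, nor did Csf1r, Itgam, C1qa and Coro1a. None of the 6 endothelial markers on the array passed, nor did the only B cell marker named on it, Cd79b. Of 9 epithelial and mesothelial markers on the array 2 passed the filter, and both differed between sources, in opposite directions. Msln, mesothelin, was at 8.69, 8.23 and 9.08 in blood cultures, against 9.98, 9.45 and 10.29 in marrow cultures of rats S4, S5 and S6 (difference -1.24 ± 0.11, limma, adjusted p = 0.00911). A Wt1 probe set, for a transcription factor of mesothelium and kidney, was at 9.38, 9.06 and 8.72 in blood cultures, against 5.23, 5.07 and 5.37 in marrow cultures (difference 3.83 ± 0.19, limma, adjusted p = 0.0026). It passed the filter through the blood arrays alone, and its adjusted p was 0.023 in limma without a filter. A second Wt1 probe set, below the filter, differed by only 0.45 ± 0.13 (limma without a filter, adjusted p = 0.318). Msln and both Wt1 probe sets each kept their direction in all 3 rats, and their part in the results below was not tested. The mean of the 9 markers, each by its brightest probe set, was 6.84 to 7.01 in blood and 6.78 to 7.02 in marrow cultures. For Wt1 that was the probe set below the filter, so the one that passed is not in this mean.

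The comparison asks how the blood cultures differ from their marrow partners. None of the 10 tested member probe sets passed an adjusted p of 0.05 in limma. Across all tested probe sets 2.15% were called, 0.983% higher and 1.17% lower in blood cultures, and with no rat term 1.6% were called and no member. At an unadjusted p under 0.05 there were 3 member probe sets, those of Fmod, Dcn and Lum, and 14.1% of all tested probe sets. The median difference of the 10 was -0.11, with 3 above 0 and 7 below, against -0.01 for all tested probe sets. Behind this the genes did not move as a block. Fmod and Gpc3 were higher in the blood culture of every rat, Dcn and Lum were far lower in the blood cultures of rats S4 and S6 but not of rat S5, and Bgn, Sdc2 and Acan lay near 0.

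**Figure D1:**
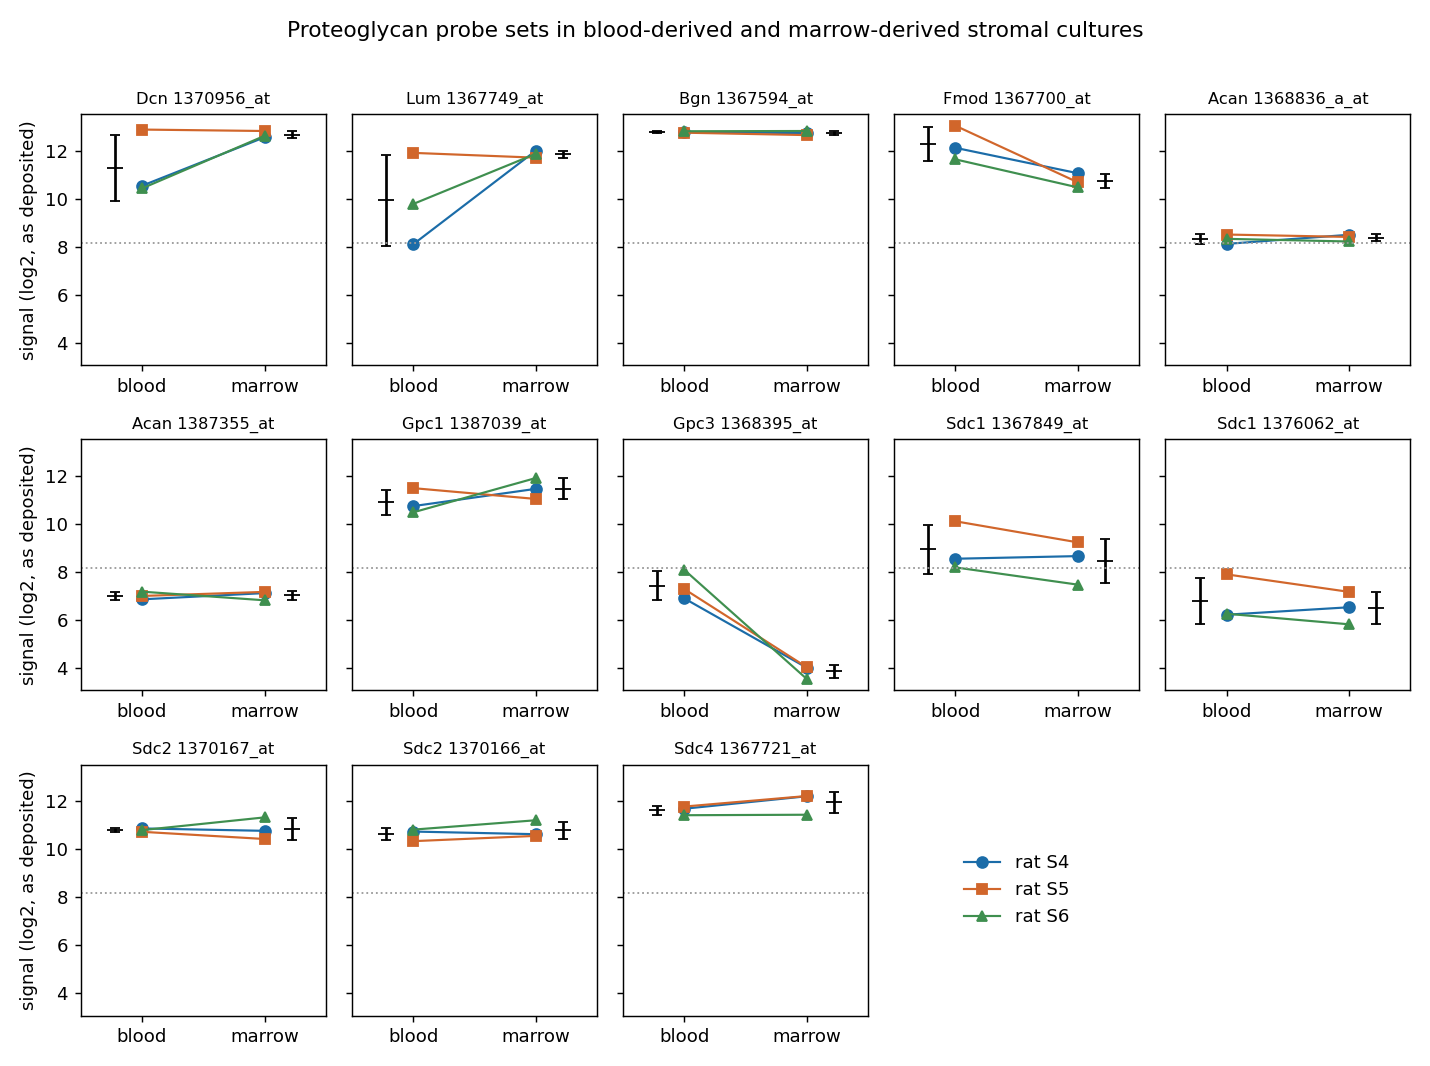
Log2 signal of the 13 member probe sets in each culture, blood left and marrow right, with lines joining the cultures of 1 rat, black bars for the group mean ± SD (n = 3), and a dotted line at the filter level of 8.18. Dcn and Lum of rats S4 and S6 run upward to marrow while the line of rat S5 is nearly flat, and the blood points of Fmod and Gpc3 all lie above the marrow points.

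Fmod encodes fibromodulin, a leucine-rich proteoglycan of tendon and cartilage that binds collagen and takes part in fibril assembly. Its signal was 12.13, 13.05 and 11.65 in blood cultures of rats S4, S5 and S6, against 11.07, 10.69 and 10.48 in marrow cultures of the same rats. All blood values lay above all marrow values, and the lowest blood value was from rat S6. Of the tested member probe sets, only this 1 had groups that did not overlap with blood above marrow, and 7.14% of all tested probe sets did so. None of the members had blood wholly below marrow, as 11.3% of all tested probe sets had. The mean was 12.28 ± 0.71 in blood and 10.75 ± 0.30 in marrow cultures (SD, n = 3 each). The difference was 1.53 ± 0.27, or 2.89-fold, with a 95% interval of 1.80-fold to 4.63-fold (limma, adjusted p = 0.0647). It thus missed the threshold over all genes. It passed with a stricter filter that asks for signal above the table median on all 6 arrays (adjusted p = 0.0292, 1.78% of all called). It also passed with an intensity trend in the variance (0.048, 2.53% called) and without rat S5 (0.0161). In limma it did not pass with no filter (adjusted p = 0.162), with values brought to a common trimmed mean (0.131), after quantile normalization (0.126) or with no rat term (0.121). Nor did it pass without rat S4 (0.461), without rat S6 (0.23), with the fluidics station in place of the rat (0.0681) or without probe sets holding empty or 0 cells (0.0655). Within rats the difference was 1.06, 2.36 and 1.17 in S4, S5 and S6, so rat S5, in which Dcn and Lum hardly differed, had the widest Fmod difference. The S5 blood value of 13.05 lies near the highest value of the table, 13.31, where the deposited values do not show whether a probe set could still respond.

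Dcn encodes decorin, which binds collagen fibrils and TGF-beta. The signal of Dcn was 10.55, 12.89 and 10.44 in blood cultures of rats S4, S5 and S6, against 12.57, 12.83 and 12.63 in marrow cultures. The marrow cultures lay close together, and so did the blood culture of rat S5 with them, while the other blood cultures differed from their marrow partners by -2.02 (S4) and -2.19 (S6). On the linear scale that is 4.06-fold lower in blood in rat S4 and 4.56-fold lower in rat S6, against a difference of 0.06 in rat S5. The marrow values and the S5 blood value lie near the top of the table, so the same limit holds for these folds and for the small S5 difference. The mean difference of -1.38 ± 0.45 did not pass (limma, adjusted p = 0.25).

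Lum encodes lumican, a keratan sulfate proteoglycan known from the cornea that also limits fibril thickness elsewhere. The signal of Lum was 8.11, 11.92 and 9.79 in blood cultures, against 12.01, 11.72 and 11.88 in marrow cultures of rats S4, S5 and S6. The order of the blood cultures was S4 lowest, S6 between and S5 within 0.20 of its marrow partner. Rat S4's blood culture was 14.9-fold below its marrow partner and rat S6's 4.26-fold, and the first is approximate because a signal of 8.11 lies under the table median, where no background level is known. The mean difference was -1.93 ± 0.72 (limma, adjusted p = 0.315), and the group means were 9.94 ± 1.91 in blood and 11.87 ± 0.15 in marrow cultures. In bulk RNA fewer cells of a type and less RNA per cell cannot be told apart.

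Without rat S5 the differences of Dcn, Lum and Gpc1 were -2.10, -2.99 and -1.07, and each passed (limma, adjusted p = 0.00133, 0.0074 and 0.0453), as did Fmod. That is 4 of 10 tested member probe sets, where 4.99% of all tested probe sets were called, and the fit then has 2 rats and 1 residual degree of freedom. Without rat S4 and without rat S6 no member passed, with 0% and 0.541% of all tested probe sets called. Rat S5 was not set apart by anything in the labels. The fluidics station of the arrays is in the instrument files: station 1 held rats S4 and S5 and station 2 rat S6. Its use in place of the rat gave Dcn and Lum adjusted p of 0.39 and 0.417. Blood arrays ran on modules 1 and 3 and marrow arrays on modules 2 and 4, so module and group cannot be told apart.

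Marker levels varied between rats as well. The mean of the leukocyte markers differed by 0.84 in S4, 0.02 in S5 and -0.10 in S6, and its part in the Dcn and Lum values was not tested. The stromal markers as a whole differed by -0.165, 0.46 and -0.175. Within that list 1 of 10 genes passed, where 2.15% of all tested probe sets were called. It was Eng, the TGF-beta co-receptor endoglin. Eng was higher in blood cultures by 2.27 in S4, 1.11 in S5 and 1.47 in S6 (limma, adjusted p = 0.038). Its adjusted p was 0.116 in limma without a filter. Nt5e, the surface enzyme CD73, was also higher in all 3 rats, by 0.71, 1.09 and 0.52, and so was Col1a1, the fibrillar collagen chain, by 0.40, 0.67 and 0.33. Pdgfra, a growth factor receptor of stromal cells, was lower in blood in all 3 rats, with differences of -2.99, -1.10 and -1.70. Thy1, a further surface marker, differed by -2.36, 1.74 and -2.43, with the signs of Dcn and Lum. Of the rest of the list, Sparc was higher in blood in all 3 rats, by 0.66, 0.66 and 0.11. Pdgfrb was lower in all 3, with differences of -0.55, -0.54 and -0.04. Col1a2, Col3a1 and Vim had mean differences of 0.29, 0.09 and 0.01. The markers of the list thus did not move together, and none but Eng passed the test.

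**Figure D2:**
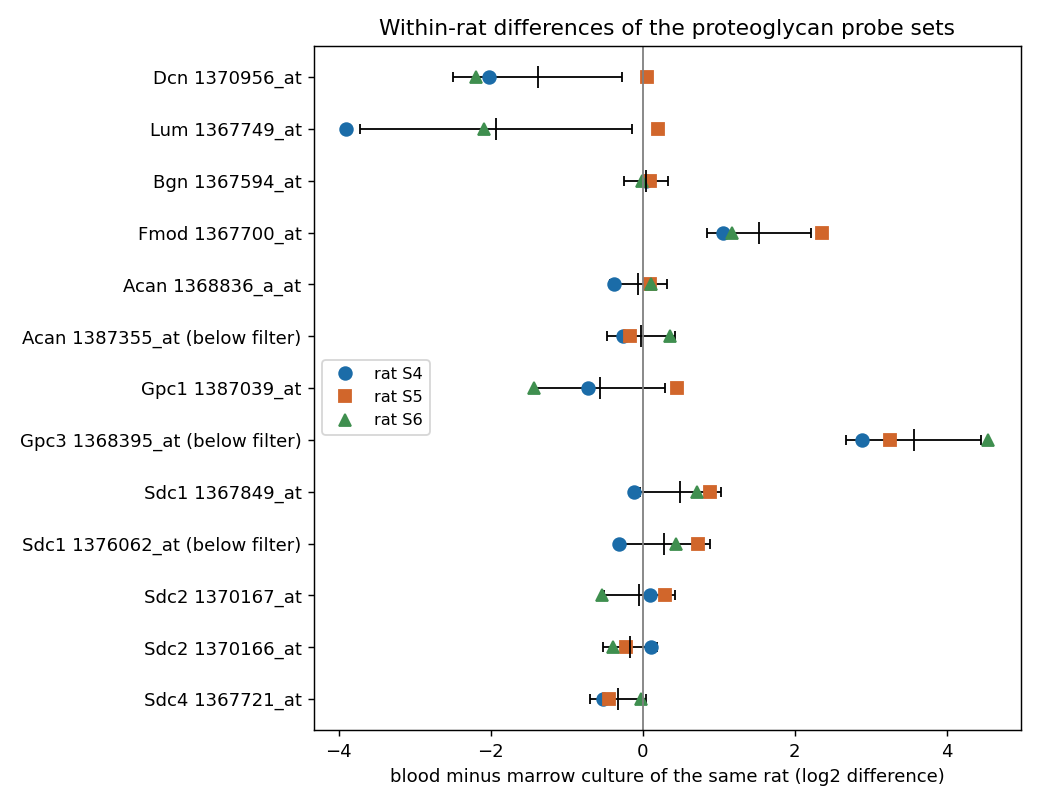
Log2 difference of blood minus marrow culture for each member probe set (rows), with 1 coloured point per rat and a black bar for the fitted mean and its 95% interval in limma, from the fit without a filter for the rows marked below filter. The S5 points of Dcn, Lum and Gpc1 lie right of 0 and apart from the S4 and S6 points, and all Fmod and Gpc3 points lie right of 0.

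Bgn encodes biglycan, the closest relative of decorin, and did not share the Dcn pattern. The signal of Bgn was 12.79, 12.76 and 12.82 in blood cultures, against 12.74, 12.66 and 12.83 in marrow cultures. The groups overlapped and the difference was 0.05 ± 0.12, with a 95% interval of -0.24 to 0.33 (limma, adjusted p = 0.929). These values too lay near the top of the table, with the limit given for Fmod.

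Dcn and Lum are neighbours. In the RefSeq gene table (assembly GRCr8) no protein-coding gene lies between them on chromosome 7, and the next genes on the side of Lum are the leucine-rich proteoglycan genes Kera and Epyc, which have no probe set with their symbol. On the other side of Dcn lies Btg1, an antiproliferative gene, which was at 12.03, 12.06 and 11.76 in blood cultures, against 11.73, 11.74 and 11.56 in marrow cultures. Its difference of 0.27 ± 0.12 ran opposite to Dcn in rats S4 and S6 (limma, adjusted p = 0.384). The neighbour of Fmod on chromosome 13 is Prelp, also a leucine-rich repeat protein of the matrix. The differences of Prelp were -0.30 in S4, 1.10 in S5 and -0.89 in S6, and its sign was that of Fmod in rat S5 only (limma, adjusted p = 0.99).

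The glypicans went opposite ways in their means. Gpc3 encodes glypican-3, a fetal glypican that binds hedgehog proteins and is lost in an overgrowth syndrome of humans. The signal of Gpc3 was 6.91, 7.30 and 8.10 in blood cultures of rats S4, S5 and S6, against 4.02, 4.04 and 3.55 in marrow cultures. No value passed the table median, but the groups were far apart. Without a filter, blood lay wholly above marrow in 7.01% of all 15866 probe sets. The marrow values ranked at the 1.52, 1.55 and 0.924 percentile of their arrays and the blood values at the 24.0, 31.3 and 48.3 percentile. In the fit without a filter the difference was 3.57 ± 0.34 (limma, adjusted p = 0.0385, over 15866 probe sets of which 0.265% were called higher in blood). The matching ratio of 11.8-fold is approximate because the background is not known at these levels. Its direction was the same in all 3 rats, at 2.89, 3.26 and 4.55. The call did not hold in the unfiltered fits on values brought to a common trimmed mean (adjusted p = 0.0757), on quantile-normalized values (0.074) or without any 1 rat (0.0508 to 0.358).

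Gpc1 encodes glypican-1, a heparan sulfate carrier that binds fibroblast growth factors. The signal of Gpc1 was 10.75, 11.50 and 10.49 in blood cultures, against 11.47, 11.05 and 11.92 in marrow cultures of rats S4, S5 and S6. The groups overlapped, and the blood culture of rat S5 was above its marrow partner by 0.45 while those of S4 and S6 differed by -0.72 and -1.43. The difference of -0.57 ± 0.35 did not pass (limma, adjusted p = 0.578), with a 95% interval of -1.43 to 0.30.

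The syndecans varied less between sources, and Sdc1 varied more between rats than between sources. Sdc1 encodes syndecan-1, a syndecan of epithelia and plasma cells. The brighter probe set of Sdc1 read 8.56, 10.12 and 8.2 in blood cultures, against 8.67, 9.24 and 7.48 in marrow cultures of rats S4, S5 and S6. The cultures of rat S5 were the highest of each source. The difference was 0.50 ± 0.22 (limma, adjusted p = 0.4), and on the dimmer probe set, which was below the filter, 0.29 ± 0.23. Both Sdc1 probe sets had the same signs, lower in blood in rat S4 and higher in S5 and S6.

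Sdc4 encodes syndecan-4, a component of focal adhesions. The signal of Sdc4 was 11.69, 11.78 and 11.42 in blood cultures, against 12.21, 12.22 and 11.44 in marrow cultures. Within rats the difference was -0.52 in S4, -0.44 in S5 and -0.02 in S6, and the difference of -0.33 ± 0.15 did not pass (limma, adjusted p = 0.415). Sdc2 encodes syndecan-2, the main syndecan of fibroblast-like cells. Its 2 probe sets differed by -0.17 ± 0.14 and -0.04 ± 0.19, with 95% intervals of -0.52 to 0.19 and -0.51 to 0.43. The Sdc2 signal ranged from 10.34 to 10.87 in blood and from 10.43 to 11.33 in marrow cultures over both probe sets. Rat S4 was slightly higher and rat S6 lower in blood on both, while in rat S5 the probe sets had opposite signs.

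The brighter probe set of Acan was near the table median in every culture. It read 8.13, 8.52 and 8.34 in blood cultures, against 8.51, 8.42 and 8.23 in marrow cultures, and differed by -0.06 ± 0.15 (limma, adjusted p = 0.933), with a 95% interval of -0.43 to 0.32. The dimmer probe set lay between 6.83 and 7.19 in all cultures. Of the 7 cartilage cell markers on the array only Col11a1, a fibrillar collagen chain, passed the filter, and their mean was 7.04 to 7.22 in blood and 6.996 to 7.32 in marrow cultures. Acan thus sat beside cartilage markers that were mostly below the filter.

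Genes related by family, by sugar chain synthesis or by partnership were described with 8 lists, which were drawn up with earlier results of these data known. Of their 70 measured genes, taking the brightest tested probe set of each, 1 rose and 1 fell. Among all 6110 measured genes 0.867% rose and 1.16% fell. The gene that rose was Timp3, an inhibitor of metalloproteinases and aggrecanases, which was at 12.05, 9.53 and 11.9 in blood cultures of rats S4, S5 and S6, against 7.54, 7.21 and 6.32 in marrow cultures (difference 4.14 ± 0.59, limma, adjusted p = 0.0356). The gene that fell was Mdk, the heparin-binding growth factor midkine, which was at 7.82, 8.16 and 7.84 in blood cultures, against 9.12, 9.45 and 8.77 in marrow cultures (difference -1.17 ± 0.14, limma, adjusted p = 0.0181). Both calls rest on the filter. Timp3 passed it through the blood arrays alone and Mdk through the marrow arrays alone, and without a filter their adjusted p was 0.115 and 0.0708 (limma). With the filter on all 6 arrays neither was tested. Of the 3 other Timp3 probe sets 1 was tested, also through the blood arrays alone, and differed by 4.72 ± 0.57 (limma, adjusted p = 0.0205, and 0.0765 without a filter).

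Of 12 other leucine-rich proteoglycans and relatives, 6 had a named probe set and 2 were measured, with a median difference of -0.71, and neither passed. Ogn, osteoglycin, read 10.35, 8.2 and 11.68 in blood cultures, against 11.70, 10.72 and 12.01 in marrow cultures. The largest gap of Ogn was in rat S5, at -2.52, so its rat order was not that of Dcn and Lum. The difference of Ogn was -1.40 ± 0.40 (limma, adjusted p = 0.196), and its 3 other tested probe sets differed by -1.34 to -1.60. Aspn, asporin, was below the filter and is singled out after its values were seen. The signal of Aspn was 2.91, 4.90 and 4.45 in blood cultures, against 9.81, 8.04 and 7.27 in marrow cultures. The groups were apart, with blood wholly below marrow, as in 9.4% of all 15866 probe sets without a filter. Yet in the fit without a filter the difference of -4.29 ± 0.85 did not pass (limma, adjusted p = 0.174). Omd, osteomodulin, Chad, chondroadherin, and Lrrc15, a leucine-rich repeat membrane protein, were also below the filter, with differences of 0.08, -0.24 and 0.02.

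Of 5 other glypicans and syndecans, 2 were measured and neither passed. Gpc6 was at 9.07, 10.46 and 10.77 in blood cultures, against 10.68, 9.98 and 10.89 in marrow cultures (difference -0.42 ± 0.39, limma, adjusted p = 0.758). Its lowest value was the blood culture of rat S4. Sdc3, the syndecan of nerve and muscle progenitors, differed by 0.23 ± 0.18 on its brightest probe set and by 0.79 ± 0.31 on a further tested one (limma, adjusted p = 0.68 and 0.341). The further Sdc3 probe set passed the filter through the blood arrays alone, and its adjusted p was 0.484 in limma without a filter. Gpc2 was below the filter, with a difference of 0.01.

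Of 19 other matrix and cell surface proteoglycans and link proteins, 6 were measured, with a median difference of -0.51, and none passed. Vcan, the large chondroitin sulfate proteoglycan versican, read 8.58, 10.41 and 8.29 in blood cultures, against 9.98, 10.82 and 9.38 in marrow cultures. Every blood culture was below its marrow partner, least so in rat S5, and the difference was -0.97 ± 0.21 (limma, adjusted p = 0.109). Ptprz1, a receptor phosphatase with chondroitin sulfate chains, was at 5.99, 9.69 and 5.69 in blood cultures, against 9.35, 9.92 and 8.73 in marrow cultures. As with Dcn and Lum, the blood culture of rat S5 lay close to its marrow partner while those of S4 and S6 were far below (difference -2.21 ± 0.61, limma, adjusted p = 0.183). Esm1, endocan, a dermatan sulfate proteoglycan, differed by -0.95 ± 0.18 (limma, adjusted p = 0.0777, and 0.181 without a filter), with the widest gap in rat S5. Its signal was 7.86, 5.67 and 9.88 in blood cultures, against 8.84, 7.01 and 10.41 in marrow cultures. Both S5 values thus lay under the table median, where no background level is known. Srgn, the intracellular proteoglycan serglycin of blood cells, differed by 0.15 ± 0.18.

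**Figure D3:**
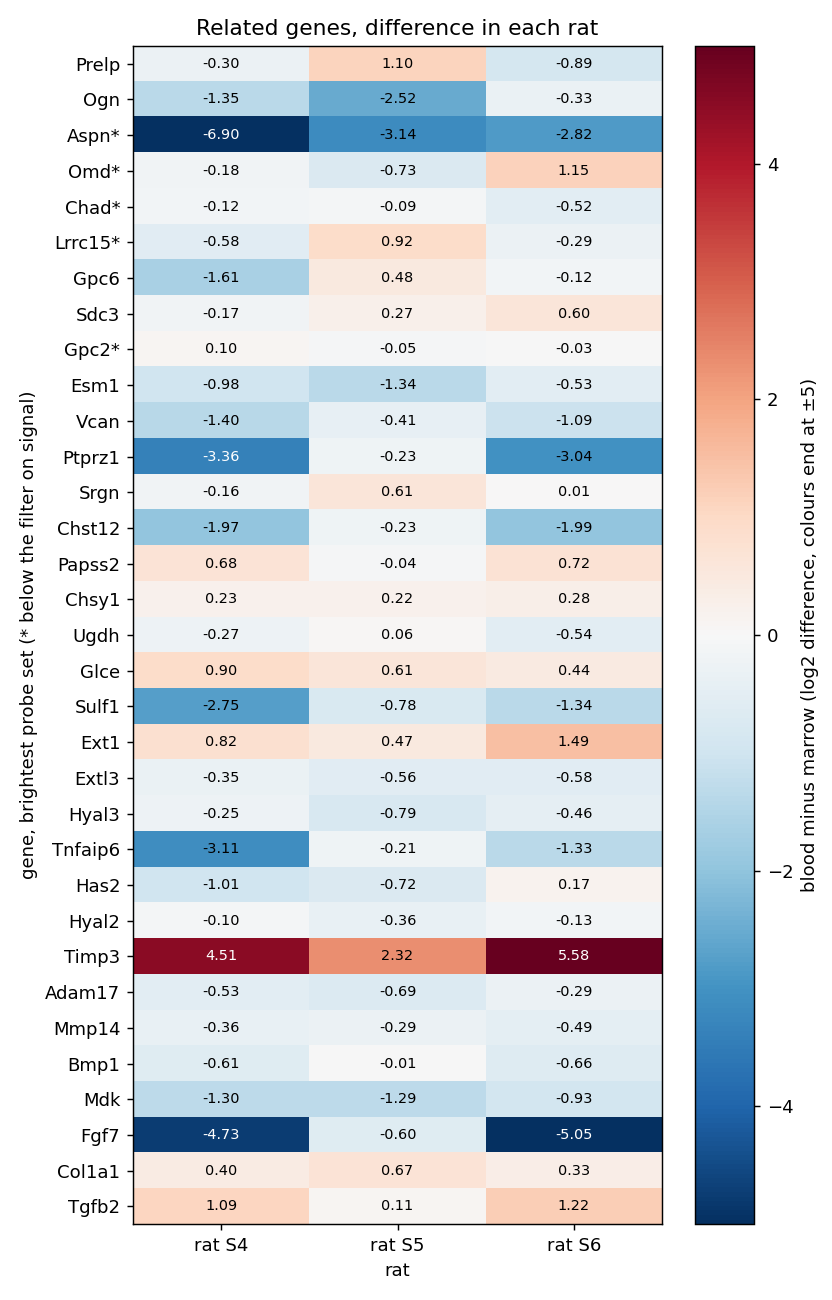
Log2 difference of blood minus marrow culture in each rat (columns) for the related genes named by rule (rows), red for higher and blue for lower in blood cultures, with the value printed in each cell and an asterisk for genes below the filter. Timp3 is red and Mdk, Aspn and Sulf1 are blue in all columns, while Ptprz1, Chst12 and Fgf7 are darker blue in S4 and S6 than in S5.

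Genes of the linker and of chondroitin or dermatan sulfate synthesis were mostly close to 0. Of the 13 measured none passed, and the median difference was -0.02. Chst12, a chondroitin 4-sulfotransferase, was at 6.99, 8.16 and 6.90 in blood cultures, against 8.96, 8.39 and 8.89 in marrow cultures. Within rats it differed by -1.97 in S4, -0.23 in S5 and -1.99 in S6 (difference -1.40 ± 0.37, limma, adjusted p = 0.166). Chst12 passed the filter through the marrow arrays alone, and its adjusted p was 0.304 in limma without a filter. Papss2, which makes the sulfate donor, differed by 0.45 ± 0.19. Chsy1, a chondroitin synthase, differed by 0.24 ± 0.11, and Ugdh, which makes the glucuronic acid donor, by -0.25 ± 0.15.

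Of 8 measured heparan sulfate enzymes none passed. They went both ways, with 3 above 0 and 5 below, and the median difference was -0.05. Ext1, a heparan sulfate polymerase subunit, was at 10.53, 10.11 and 10.74 in blood cultures, against 9.71, 9.64 and 9.25 in marrow cultures (difference 0.93 ± 0.21, limma, adjusted p = 0.127). All blood values were above all marrow values. The same held for Glce, the epimerase of the chain, at 0.65 ± 0.14. The opposite held for Extl3, which starts the chain, at -0.50 ± 0.12, and for Sulf1. Over all tested probe sets 7.14% had blood wholly above and 11.3% wholly below marrow, and these genes were named for their small p-values. Sulf1, an extracellular enzyme that trims sulfate from heparan chains, was at 8.12, 9.56 and 8.47 in blood cultures, against 10.87, 10.34 and 9.81 in marrow cultures (difference -1.62 ± 0.37, limma, adjusted p = 0.125). A dimmer Sulf1 probe set below the filter differed by -0.79 in S4, 0.28 in S5 and -0.82 in S6, so the sign in rat S5 was not shared.

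Of 6 measured hyaluronan genes none passed, with a median difference of -0.35. Tnfaip6, a hyaluronan-binding protein, was at 6.24, 8.98 and 5.82 in blood cultures, against 9.35, 9.19 and 7.15 in marrow cultures (difference -1.55 ± 0.52, limma, adjusted p = 0.264). Has2, a hyaluronan synthase, differed by -0.52 ± 0.24, and the hyaluronidase family genes Hyal2 and Hyal3 by -0.20 ± 0.12 and -0.50 ± 0.15. Of 11 measured genes of proteoglycan cleavage and shedding, Timp3 alone passed, and the median was 0.01. Adam17, a sheddase of membrane proteins, differed by -0.50 ± 0.13, the membrane metalloproteinase Mmp14 by -0.38 ± 0.12 and Bmp1, a procollagen proteinase that also processes leucine-rich proteoglycans, by -0.43 ± 0.17 (limma, adjusted p = 0.169, 0.238 and 0.349). Each was lower in the blood culture of all 3 rats on its brightest probe set, with Bmp1 at -0.01 in rat S5, and a second tested Bmp1 probe set had the opposite sign there (0.34).

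Of 22 measured ligands, receptors and partners of these proteoglycans, Mdk alone passed, and the median was 0.04. Fgf7, a heparin-binding growth factor for epithelia, was at 5.22, 8.89 and 4.96 in blood cultures, against 9.95, 9.49 and 10.01 in marrow cultures. The gap was wide in rats S4 and S6 and narrow in rat S5 (difference -3.46 ± 0.87, limma, adjusted p = 0.152). Tgfb2, a ligand that decorin and other members bind, was higher in blood cultures of rats S4 and S6 by 1.09 and 1.22 and of rat S5 by 0.11 (limma, adjusted p = 0.214). Col1a1, a collagen chain of the fibrils that Dcn, Lum and Fmod products bind, differed by 0.47 ± 0.13 (limma, adjusted p = 0.188).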

How the data were processed

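RNA of 3 blood-derived and 3 marrow-derived stromal cultures was read on Affymetrix RAE230A arrays. The authors deposited 1 log2 signal per probe set and array; the base was read from the values (0 to 13.31). GCOS is the only tool in the submitters' processing notes, and no source used here gives the probe summarisation, background correction or normalization. Of 95538 cells 86 were empty and 94 were 0, none in a member, and they were left so.

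Values were used as deposited (pseudocount 0), without the 57 control probe sets. Probe sets above 8.18 on at least 3 arrays (8135) were fitted with limma 3.58.1 in R 4.3.3 (lmFit, eBayes, two-sided, rat as a fixed term, Benjamini-Hochberg, threshold 0.05). The series' design text pairs cultures by rat. As a check, blood and marrow arrays of a rat, after removal of group means, correlated at -0.29 (S4), 0.30 (S5) and 0.33 (S6), and those of different rats at -0.47 to 0.42 (highest for S4 blood with S6 marrow), so the pairing rests on the design text. No array pair was near identical (smallest SD of pairwise differences 0.264 over 15 pairs). In the fit with the rat term, p-values rest on how the blood minus marrow difference varied between the 3 rats, not on differences between rats shared by both sources. The eBayes step draws each probe set's variance towards a value shared by all tested probe sets. No culture or array was repeated within a rat and source, so their spread cannot be told apart from that of the rats. The fit was tested on simulated data.

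Of 15923 probe sets 12789 had 1 symbol, 312 several and 2822 none, and only the first were named; all 10 members are in the RefSeq gene table. The members and lists were chosen with earlier results of these data known. The rule named all members, each measured gene of the 2 lists closest to them, and elsewhere genes past the threshold plus the 4 with the smallest p. List genes with no named probe set are not analysed here. Alternatives were no rat term, other filters, scalings and variance models, dropping probe sets with empty or 0 cells, the fluidics station, and leaving out each rat. Promoter windows came from RefSeq (GRCr8). Tables and figures were made in Python 3.11.15 with matplotlib 3.10.9, numpy 2.4.6 and pandas 2.3.3.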

Additional observations from a re-analysis of the deposited data

How the results depend on the processing

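With 3 rats the arrays' number limits every value, and levels below the table median have no known background. The count of member probe sets past the threshold, 0 of 10, became 1 with the filter on all 6 arrays (Fmod), 1 with the intensity trend (Fmod) and 1 with no filter (Gpc3), and ranged from 0 to 4 when each rat was left out. It stayed at 0 with no replicate block, where the count over all probe sets was 130 against 175. That count was 104 on a common trimmed mean, 107 after quantile normalization and 82 with no filter, and 0 to 406 leaving out each rat, with 0 without rat S4 (770 at an unadjusted p under 0.05 in limma). Listed related genes past the threshold were 2, and 1 on a common trimmed mean, 1 after quantile normalization, 1 with the fluidics station in place of the rat, 0 with the filter on all 6 arrays, 0 with no filter, and 0 to 11 leaving out each rat. The median member difference of -0.11 kept its sign in all alternatives run, between -0.178 and -0.095 (log2). Rat by rat the sign was not shared, with a median of -0.245 in S4, 0.15 in S5 and -0.205 in S6. Signs turned for values near 0: Acan lay between -0.14 and 0.105 (0.105 without rat S4) and its dimmer probe set by 0.095 without rat S4 and 0.05 without rat S5, and a Sdc2 probe set between -0.215 and 0.20 (0.20 without rat S6). For Gpc3, fits with no filter combined with a second change were added after seeing the data; its difference lay between 3.07 and 3.91 in them. The cause of these shifts was not tested. Each fit that left out a rat had 1 residual degree of freedom.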
